A study of Mus musculus with 21 samples.

Results

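The genes described here carry out sulfate and glucuronide conjugation in mouse liver: the PAPS synthases, the sulfotransferases (*Sult*) and the UDP-glucuronosyltransferases (*Ugt1a*, *Ugt2* and *Ugt3a*). They were chosen by name alone, as the protein-coding genes of GENCODE M21 called *Papss1*, *Papss2*, *Sult* with a number, or *Ugt* with 1, 2 or 3 and the letter a or b. This gave 44 genes of the 46078 in the count table, made up of 2 PAPS synthases, 21 sulfotransferases and 21 glucuronosyltransferases. Liver poly(A) RNA was sequenced from male mice that were at least 9 weeks old and calorie restricted. The animals either lacked cystathionine γ-lyase, encoded by *Cse* (*Cth* in the table), and were labelled cse (KO here), or were comparison mice labelled WT, which the study's text describes as *Cse*+/- heterozygotes. The KO line had a mixed 129/C57BL/6 background. The defined diet 5CC7 was given complete (CTR), without cysteine (noCys) or without tryptophan (noTrp), with the remaining amino acids raised to make up for the one left out. The 21 libraries formed 6 groups: 3 WT and 4 KO animals on CTR, 4 WT and 3 KO (replicates 1, 3 and 4) on noCys, and 2 WT and 5 KO on noTrp.

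Conjugation makes hormones, bile acids, bilirubin and foreign compounds soluble enough to leave the body. Sulfotransferases move a sulfate group from the activated donor PAPS, which the PAPS synthases build from ATP and inorganic sulfate, and much of that sulfate comes from the oxidation of cysteine. Glucuronosyltransferases sit in the endoplasmic reticulum and use UDP-glucuronate, a donor made from glucose and holding no sulfur. The comparison of both routes therefore sets a pathway whose donor contains sulfur beside one whose donor does not, in livers that differ in whether cysteine was eaten and could be made.

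Of the 44 genes, 13 lay within a single stretch of 701.8 kb on chromosome 5 (86889767 to 87591594, GRCm38), which held all 10 *Ugt2* genes together with *Sult1b1*, *Sult1d1* and *Sult1e1*. The *Ugt1a* genes occupied 164.6 kb of chromosome 1 and share their last exons. The 250 bases before the RefSeq start (GRCm38.p6) are printed for the 3 *Ugt2b* genes that were higher in KO noCys liver and, for contrast, for *Ugt2b38*, a neighbour that was not called. In *Ugt2b5*, *Ugt2b38* and *Ugt2b35* the capitals mark the longest run of letters in common with *Ugt2b36*, of 24, 22 and 14 bases. In *Ugt2b36* they mark the 24 bases in common with *Ugt2b5*. The windows of *Ugt2b5* and *Ugt2b38* have a longer run in common with each other, of 62 bases, which is not marked as a whole.
Ugt2b5, chr5:87140341-87140590, minus strand: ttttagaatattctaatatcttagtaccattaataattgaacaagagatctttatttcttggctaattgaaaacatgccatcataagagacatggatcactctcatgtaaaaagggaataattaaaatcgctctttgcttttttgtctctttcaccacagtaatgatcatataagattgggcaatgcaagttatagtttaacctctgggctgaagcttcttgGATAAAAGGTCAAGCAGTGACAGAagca
Ugt2b36, chr5:87092556-87092805, minus strand: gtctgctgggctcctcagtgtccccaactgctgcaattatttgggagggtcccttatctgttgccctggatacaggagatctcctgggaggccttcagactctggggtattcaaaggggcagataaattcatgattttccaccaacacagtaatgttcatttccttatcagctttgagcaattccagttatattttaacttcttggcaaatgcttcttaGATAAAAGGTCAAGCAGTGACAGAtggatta
Ugt2b35, chr5:87000610-87000859, plus strand: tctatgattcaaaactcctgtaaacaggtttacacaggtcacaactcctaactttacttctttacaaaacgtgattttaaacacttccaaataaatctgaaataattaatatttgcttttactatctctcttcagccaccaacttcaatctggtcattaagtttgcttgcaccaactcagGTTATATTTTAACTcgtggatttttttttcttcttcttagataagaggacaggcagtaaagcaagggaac
Ugt2b38, chr5:87424204-87424453, minus strand: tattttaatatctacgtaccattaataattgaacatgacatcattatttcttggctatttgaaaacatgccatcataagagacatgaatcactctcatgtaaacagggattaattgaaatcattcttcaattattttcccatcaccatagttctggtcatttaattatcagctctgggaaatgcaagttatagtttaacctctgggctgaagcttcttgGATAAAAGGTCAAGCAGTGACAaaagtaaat
The 24-base run also stood in the window of *Ugt2b37*. That gene had only 3 to 59 counts per library and was not called in KO noCys against WT noCys (log2 fold change 0.86, SE 0.58). Whether the run has a part in the calls was not tested. In *Ugt2b35* no stretch longer than 10 bases was common to its window and that of *Ugt2b5*, *Ugt2b37* or *Ugt2b38*. A RefSeq window was found for 38 of the 44 genes.

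A smaller part of the sulfotransferases than of the glucuronosyltransferases had enough counts in these livers to be tested. Counts were high enough for testing in 26 of the 44 genes: both PAPS synthases, 8 of 21 sulfotransferases and 16 of 21 glucuronosyltransferases. A further 9 genes had 0 counts in all 21 libraries (*Sult1c1*, *Sult2a3*, *Sult2a4*, *Sult2a5*, *Sult2a6*, *Sult3a2*, *Sult6b2*, *Ugt2a1* and *Ugt2a2*), which allows up to 3 counts over all libraries, or 0.0101 CPM (counts relative to the scaled library total). *Ugt2a1* and *Ugt2a2* are an exception to this limit: they have 30 and 140 bases of exon that no other gene overlaps, and 96.6% and 93.6% of their 61-base windows occur in another gene, so their 0 counts set no limit on their transcripts. The other 9 (*Sult2a1*, *Sult2a2*, *Sult2b1*, *Sult3a1*, *Sult4a1*, *Sult6b1*, *Ugt1a2*, *Ugt1a8* and *Ugt1a10*) had few counts and were not tested. *Sult2a1*, *Sult2a2* and *Sult3a1* are known as genes of female mouse liver.

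Per kilobase of exon that no other gene overlaps, and averaged over the 6 group means, *Sult1a1*, the main phenol sulfotransferase, was at 339 CPM per kb. It was followed by *Ugt2b5* (326) and *Ugt2b36* (258), enzymes of the family that conjugates steroids and bile acids. *Sult2a8*, a bile acid sulfotransferase, stood at 136, *Ugt2b1* at 133 and *Sult1d1*, a catecholamine sulfotransferase, at 121. The ranges of group means of *Sult1a1* (245 to 420), *Ugt2b5* (278 to 465) and *Ugt2b36* (217 to 324) overlapped one another, and those of *Sult2a8*, *Ugt2b1* and *Sult1d1* did too. *Ugt2b36* did not overlap *Sult2a8*, whose highest group mean was 175. *Papss2* was at 42.7 and *Papss1* at 3.03 CPM per kb, so that *Papss2* was the PAPS synthase of this liver by transcript level. *Ugt1a1*, the bilirubin enzyme, was at 43.6, on 385 bases of unshared exon. Reads in the common exons of the *Ugt1a* genes cannot be given to one gene, and 51.6% to 79.6% of the 61-base windows of their transcripts also occur in another gene, so their levels rest on the rest of each transcript. Such windows made up 35.5% for *Ugt2b5*, 31.8% for *Ugt2b38* and 11.5% for *Ugt2b37*, which share them among themselves, and at most 2.97% for the other genes with a called difference.

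**Figure D1:**
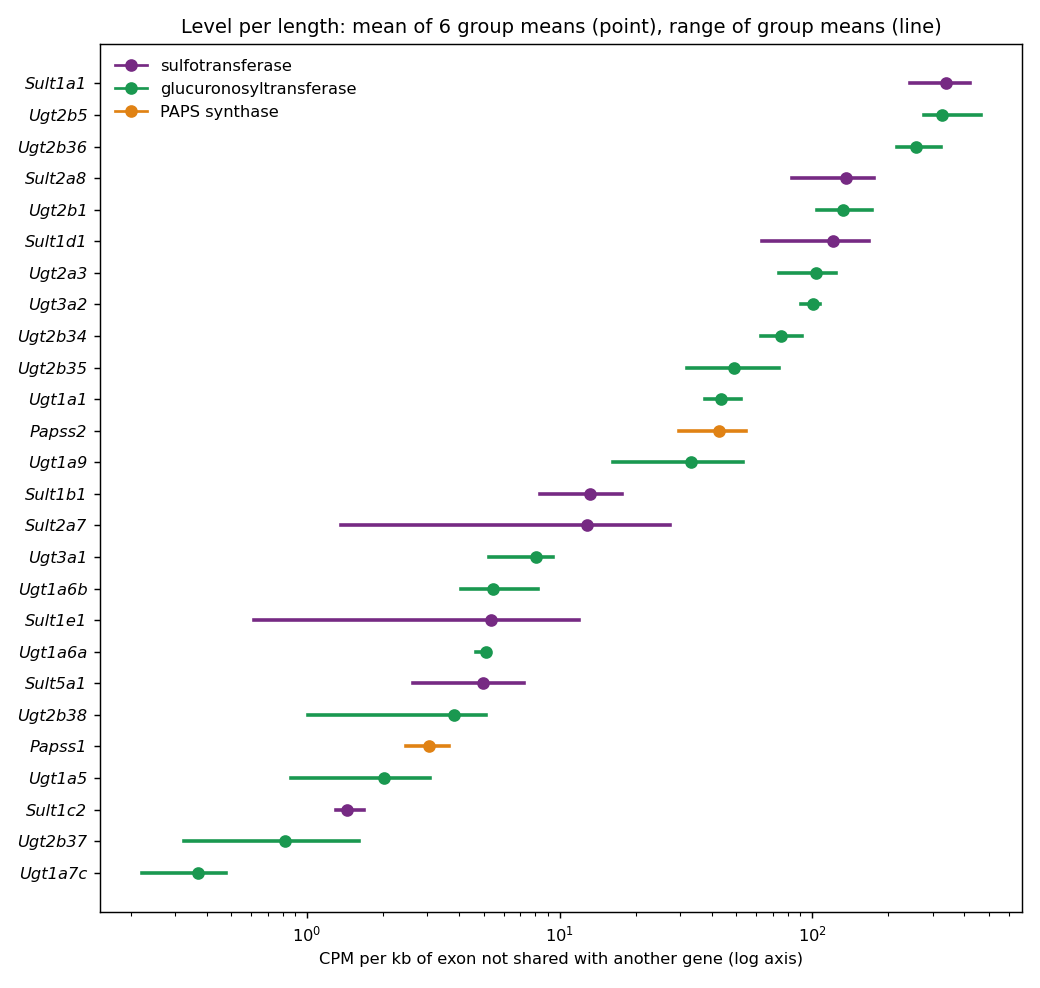
Level of each tested conjugation gene in CPM per kb of exon not shared with another gene, on a log axis; the point is the mean of the 6 group means and the line runs from the lowest to the highest group mean. *Sult1a1* (339), *Ugt2b5* (326) and *Ugt2b36* (258) head the order, and the lines of *Sult2a7* (1.37 to 27.4) and *Sult1e1* (0.614 to 11.96) are among the widest.

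The comparison of KO noCys with WT noCys sets livers without both sources of cysteine, diet and synthesis, beside livers without the diet source alone. It also holds any difference between the genotypes that is present on the control diet. Conjugation genes moved in both directions on both sides. *Ugt2b35*, *Ugt2b5* and *Ugt2b36* were higher by 2.1-fold, 1.60-fold and 1.35-fold. *Sult1e1*, the estrogen sulfotransferase, was 9.50-fold higher and *Sult2a7* was 5.01-fold higher, both from low levels. Neither of these 2 genes was called on removal of cysteine within KO liver (log2 fold changes 0.34 and -0.80). *Papss2*, *Sult1b1*, *Sult2a8* and *Ugt2a3* were lower than in WT noCys, by log2 values of -0.89, -0.80, -0.95 and -0.75. Here and below, fold changes come from the edgeR quasi-likelihood fit, SE is their standard error on the log2 scale, and a gene was called when its Benjamini-Hochberg adjusted p over 14370 genes was under 0.05.

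In all, 9 of the 26 tested genes were called (34.6%), 5 higher and 4 lower, where 28.2% of all tested genes were called, 14.8% higher and 13.4% lower. This share is near the background, and the median log2 fold change of the 26 genes was 0.04 against -0.02 for all genes. Among the 10 sulfotransferases and PAPS synthases, 2 were called higher and 3 lower, with a median of -0.17. Among the 16 glucuronosyltransferases, 3 were called higher and 1 lower, with a median of 0.14. No *Ugt1a* gene was called of 6 tested, and no *Ugt3* gene of 2. Of the 9 called genes, 6 lay in the stretch on chromosome 5, where *Sult1e1* and the 3 *Ugt2b* genes were higher while *Sult1b1* and *Ugt2a3* were lower. The adjacent *Sult2a7* and *Sult2a8* on chromosome 7 also went in opposite directions.

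**Figure D2:**
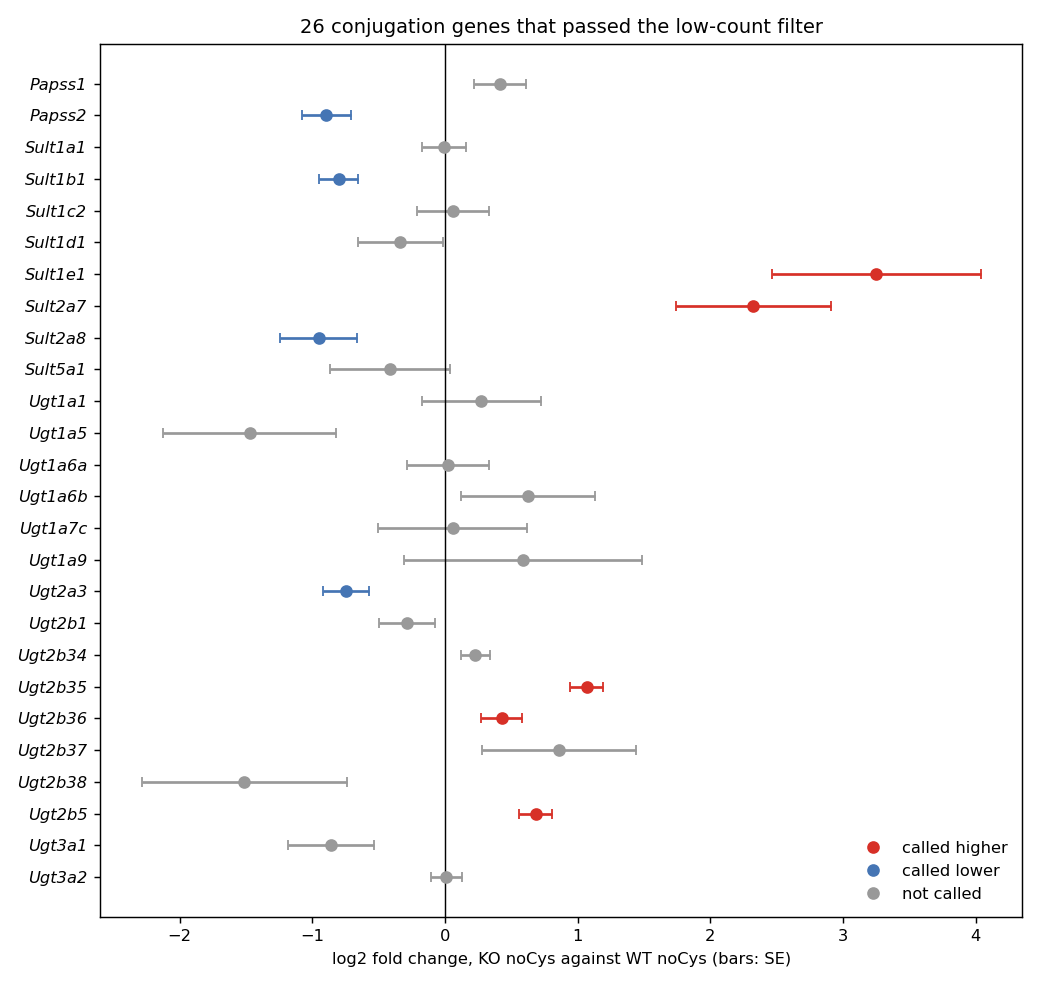
Log2 fold change of the 26 tested conjugation genes in KO noCys against WT noCys, with SE bars; red genes were called higher, blue genes lower and grey genes not called. The 5 red genes run from *Ugt2b36* (0.43) to *Sult1e1* (3.25) and the 4 blue genes from *Ugt2a3* (-0.75) to *Sult2a8* (-0.95), while *Ugt2b38* has the lowest value (-1.51) with a wide bar and no call.

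Several limits bear on all of these values. The marker genes of hepatocytes (9 of 10 listed were in the table) summed to 74232, 45450 and 50002 CPM in KO noCys replicates 1, 3 and 4 against 101041 to 114285 in WT noCys, and 5 of the 9 were called lower and 0 higher. Their part in the lower conjugation genes was not tested, and in bulk tissue fewer cells of a type and less RNA per cell cannot be told apart. None of the 7 markers of kidney proximal tubule reached 1 CPM in any library, and neither did 5 of 7 of small intestine or 7 of 8 of exocrine pancreas. The tissue label was met by the hepatocyte markers, none of which was at 0. *Cth* itself ranged from 6.34 to 14.99 CPM in KO and from 108 to 452 CPM in WT libraries. Total counts ran from 8889951 to 27230852 per library. The labels call the libraries biological replicates.

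The PAPS synthases went apart. *Papss2* (chromosome 19, 32595790 to 32667187), the main synthase of the liver, had 210, 173, 200 and 234 CPM in WT noCys against 157, 77.0 and 97.3 in KO noCys. Every KO library was below every WT library, with KO replicate 1 the nearest to the WT values. The log2 fold change was -0.89 (SE 0.18, adjusted p = 0.00116), and leaving out any of the 7 libraries kept the call (-1.23 to -0.69). On the other diets the groups overlapped: 148 to 197 CPM in WT CTR against 142 to 181 in KO CTR, and 131 and 184 in WT noTrp against 138 to 161 in KO noTrp.

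*Papss1* (chromosome 3, 131564768 to 131643671), the more widely expressed synthase, had 8.23, 9.01, 7.22 and 8.92 CPM in WT noCys against 11.2, 11.5 and 10.7 in KO noCys. All 3 KO values were above all 4 WT values, but the log2 fold change of 0.41 (SE 0.19) was not called (adjusted p = 0.116). Because *Papss1* was so much lower than *Papss2*, the summed level of both was 121 ± 41.3 CPM (SD) in KO noCys and 213 ± 25.3 in WT noCys.

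Of the 8 tested sulfotransferases, 2 were called lower and 2 higher in this comparison, and 4 were not called. *Sult1b1* (chromosome 5, 87513339 to 87538195), which conjugates thyroid hormone and small phenols, had 38.4, 40.9, 36.9 and 43.8 CPM in WT noCys against 31.5, 17.6 and 20.7 in KO noCys. The groups did not overlap, and KO replicate 1 was again nearest to WT. Its log2 fold change was -0.80 (SE 0.15, adjusted p = 0.000498), between -1.07 and -0.63 with any library left out, and it was called each time.

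*Sult2a8* (chromosome 7, 14410686 to 14446769), the abundant bile acid sulfotransferase, had 510, 614, 438 and 545 CPM in WT noCys against 249, 273 and 295 in KO noCys. All 3 KO noCys libraries lay below every WT noCys library, but WT noTrp had values of 153 and 606, so that a single WT library on another diet was lower still. With cysteine in the diet the 4 KO CTR libraries (375 to 534 CPM) were also below the 3 WT CTR libraries (566 to 591), a log2 fold change of -0.35 that was not called (SE 0.28, adjusted p = 0.741). Neither cysteine removal in KO liver (-0.73, adjusted p = 0.0784) nor the difference between genotypes in the response (-0.60, adjusted p = 0.391) was called for this gene. The log2 fold change was -0.95 (SE 0.29, adjusted p = 0.0192). The call was lost on leaving out KO noCys replicate 1 (-0.89, adjusted p = 0.0597) or 3 (-0.95, adjusted p = 0.0664), or when libraries were scaled by their totals alone (-0.73, adjusted p = 0.0721).

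*Sult1e1* (chromosome 5, 87575969 to 87591594), which inactivates estrogens by sulfation, had 0.992, 0.338, 1.99 and 1.26 CPM in WT noCys against 23.2, 6.72 and 4.69 in KO noCys. The KO libraries were all higher and spread widely among themselves. Its log2 fold change was 3.25 (SE 0.79, adjusted p = 0.00442) and was called with each library left out (2.29 to 3.64). On the other diets KO libraries were mostly high as well, with 0.785, 5.32, 6.61 and 23.4 CPM in KO CTR against 0.741, 1.08 and 0.465 in WT CTR. These groups overlapped at KO CTR replicate 1, and the log2 fold change of 3.45 was not called (SE 0.94, adjusted p = 0.139). KO noTrp ran from 8.66 to 24.6 CPM with a median of 12.5, above the 3.76 and 1.49 of WT noTrp, and that log2 fold change of 2.50 was not called (SE 0.87, adjusted p = 0.332).

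*Sult2a7* (chromosome 7, 14465051 to 14494230), a hydroxysteroid sulfotransferase, separated the genotypes on every diet. Its 12 KO libraries ran from 12.5 to 78.8 CPM and its 9 WT libraries from 1.42 to 5.72. In noCys the values were 32.6, 16.9 and 12.5 in KO and 5.72, 2.25, 2.94 and 4.64 in WT. The difference of 2.32 on the log2 scale (SE 0.58, adjusted p = 0.00563) was called with each library left out. On the control diet the log2 fold change was 3.81 (SE 0.68, adjusted p = 0.0223), or 3.06 without KO CTR replicate 2, and without tryptophan it was 4.29 (SE 0.82, adjusted p = 0.0234). The control values were 26.9, 76.6, 17.6 and 18.8 CPM in KO and 2.12, 2.94 and 2.44 in WT, and the call was lost in 4 of the 7 leave-out fits, those without KO CTR replicate 2 or any 1 WT CTR library. In noTrp it was lost without either WT library. On both diets it was also lost with the replicate block or with only the groups compared. None of its 61-base windows occurred in another gene. Whether the difference goes with *Cse* or with the mixed background of the KO line cannot be told apart.

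The other 4 tested sulfotransferases were not called. *Sult1a1* had 450 to 541 CPM in WT noCys and 447 to 632 in KO noCys, which did not amount to a called difference (SE 0.17, adjusted p = 0.986). *Sult1d1* stood at 314 ± 59.1 CPM (SD) in WT noCys and 249 ± 142 in KO noCys, where replicate 1 had 411 and replicates 3 and 4 had 150 and 186. Its log2 fold change was -0.34 (SE 0.32, adjusted p = 0.455), and it was called lower only without KO noCys replicate 1. *Sult5a1* and *Sult1c2* had log2 fold changes of -0.42 (SE 0.45) and 0.06 (SE 0.27).

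On the glucuronosyltransferase side the higher genes were the 3 *Ugt2b* genes whose upstream windows are printed above. *Ugt2b35* (chromosome 5, 87000860 to 87013275) had 124, 97.1, 123 and 130 CPM in WT noCys against 204, 276 and 265 in KO noCys. The lowest KO library was well above the highest WT library. The log2 fold change was 1.07 (SE 0.12, adjusted p = 6.08e-06), the smallest adjusted p among the conjugation genes in this comparison, and 0.98 to 1.19 with any library left out.

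*Ugt2b5* (chromosome 5, 87124960 to 87140318), the most abundant *Ugt* transcript per length, had 511, 640, 453 and 548 CPM in WT noCys against 969, 848 and 774 in KO noCys. These groups did not overlap. Its log2 fold change was 0.68 (SE 0.13, adjusted p = 0.000568) and was called with each library left out (0.59 to 0.77). *Ugt2b36* (chromosome 5, 87065927 to 87092555) had 498, 585, 400 and 502 CPM in WT noCys against 699, 635 and 669 in KO noCys. Its smaller log2 fold change of 0.43 (SE 0.15, adjusted p = 0.0443) was called in only 1 of the 7 leave-out fits, the one without WT noCys replicate 2, and was lost without the filter on low counts (adjusted p = 0.0529) or with the replicate number as a block (adjusted p = 0.0816).

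*Ugt2a3* (chromosome 5, 87324972 to 87337195) was the glucuronosyltransferase called lower than in WT noCys. It had 262, 238, 259 and 294 CPM in WT noCys against 218, 119 and 135 in KO noCys, with KO replicate 1 nearest to WT as for *Papss2* and *Sult1b1*. The log2 fold change was -0.75 (SE 0.17, adjusted p = 0.0030), called with each library left out (-1.05 to -0.58). On the control diet KO libraries (191 to 212 CPM) were also below WT libraries (241 to 253), with an uncalled log2 fold change of -0.28 (SE 0.17, adjusted p = 0.624). Cysteine removal in KO liver gave -0.37, which was not called (SE 0.17, adjusted p = 0.135). *Ugt3a1*, whose family uses other UDP-sugars, had 14.2 to 31.3 CPM in WT noCys against 10.4 to 16.6 in KO noCys and just missed the threshold (-0.86, SE 0.32, adjusted p = 0.0535). Its partner *Ugt3a2* stood at 0.01 (SE 0.12).

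The remaining *Ugt2b* genes were not called. *Ugt2b34* was at 0.23 (SE 0.11), *Ugt2b1* at -0.28 (SE 0.21), *Ugt2b37* at 0.86 (SE 0.58) and *Ugt2b38* at -1.51 (SE 0.77). Every KO noCys library was above every WT noCys library for *Ugt2b34* and *Ugt2b37*, while the groups overlapped for *Ugt2b1* and *Ugt2b38*. Among the *Ugt1a* genes the log2 fold changes ran from -1.47 (*Ugt1a5*, SE 0.65) to 0.62 (*Ugt1a6b*, SE 0.51). In CPM, *Ugt1a9* varied most of the *Ugt1a* genes within groups, from 12.1 to 57.8 in WT noCys and from 20.6 to 84.5 in KO noCys. A change in it was therefore not detectable here.

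**Figure D3:**
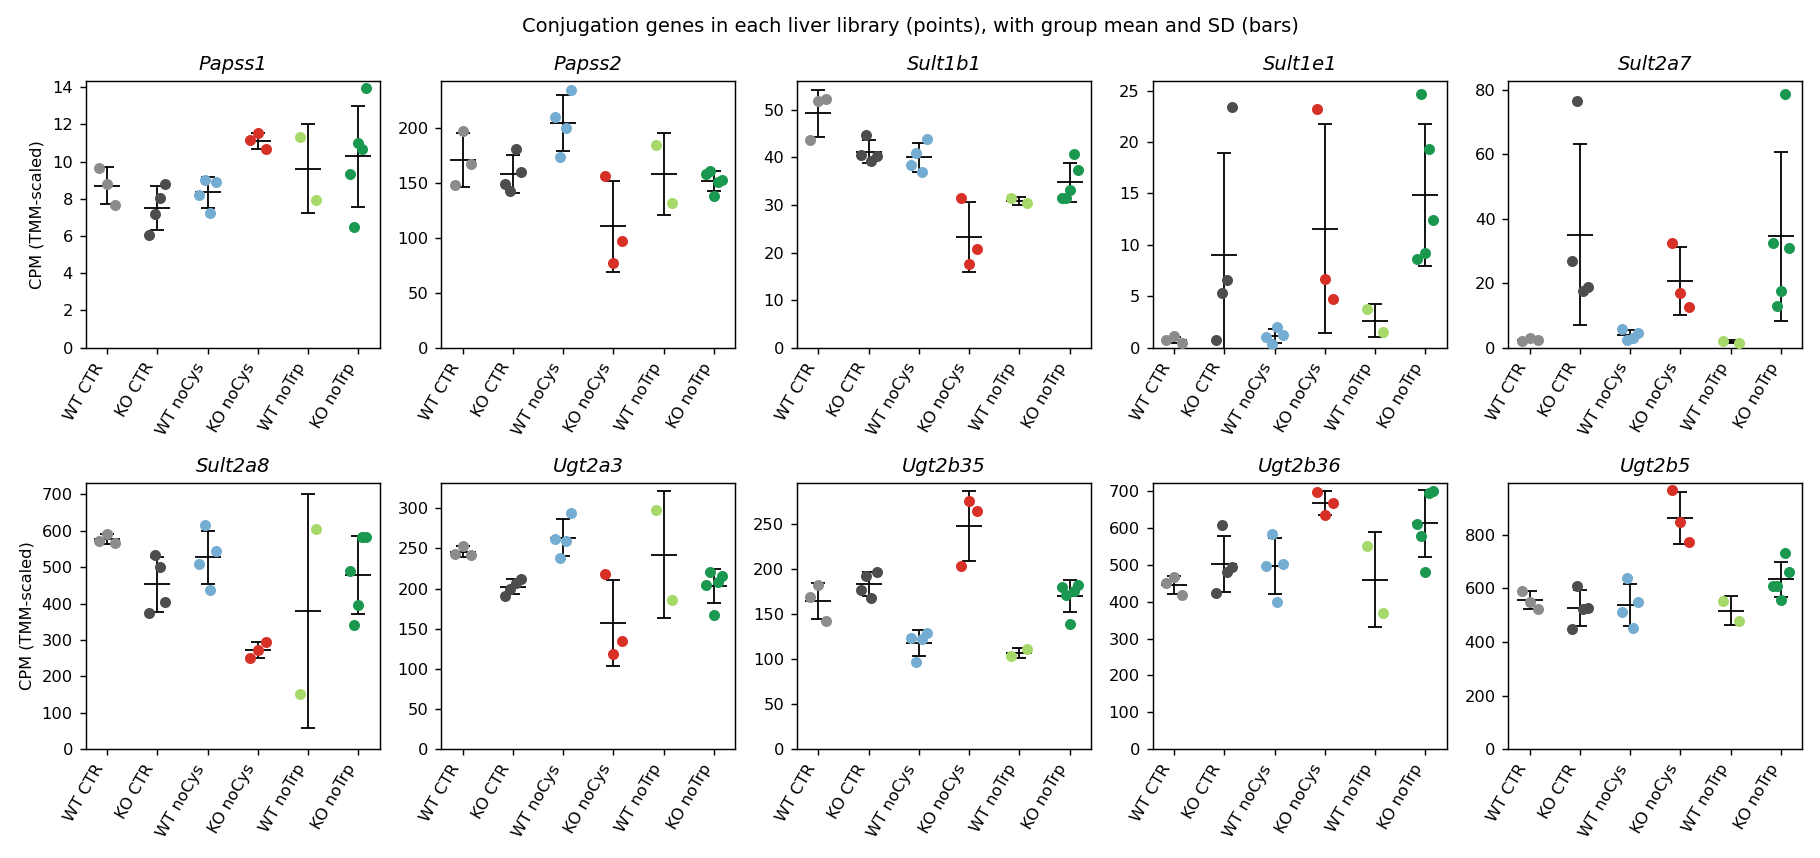
CPM in each of the 21 libraries (points) for *Papss1*, *Papss2* and the 8 further genes with values by library, by group, with the group mean and SD; each panel has its own linear axis from 0, where a lower SD bar can be cut off. *Sult2a7* is higher in all KO groups than in all WT groups, *Ugt2b35* and *Ugt2b5* are highest in KO noCys, and *Papss2*, *Sult1b1* and *Ugt2a3* are lowest there with 1 KO noCys library above the other 2.

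Whether cysteine removal acted differently in the 2 genotypes was tested as a difference between differences. 2 of the 26 genes were called, both higher, where 7.44% of all tested genes were called (3.56% higher). *Ugt2b35* had 169, 182 and 143 CPM in WT CTR against 177, 193, 168 and 197 in KO CTR. The genotypes thus overlapped on the control diet and did not overlap without cysteine. They did not overlap without tryptophan either (139 to 182 CPM in KO against 104 and 111 in WT), where the log2 fold change of 0.66 was not called (SE 0.14, adjusted p = 0.0549). Its log2 fold change on removal of cysteine was -0.48 in WT (SE 0.13, adjusted p = 0.081) and 0.44 in KO (SE 0.12, adjusted p = 0.0182). The difference of 0.91 (SE 0.18, adjusted p = 0.00401) was called with each of the 14 libraries left out.

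*Ugt2b5* had 592, 551 and 524 CPM in WT CTR against 448, 609, 523 and 529 in KO CTR. Removing cysteine gave -0.05 in WT (SE 0.13) and 0.71 in KO (SE 0.13, adjusted p = 0.000636). The difference of 0.76 (SE 0.18, adjusted p = 0.0151) was also called with each library left out. For *Papss2* the responses were 0.26 in WT (SE 0.18) and -0.52 in KO (SE 0.18, adjusted p = 0.0462), and their difference of -0.78 (SE 0.25) was not called (adjusted p = 0.0662), though it was by DESeq2 (adjusted p = 0.0333) and without the low-count filter (adjusted p = 0.0494). Leaving out KO noCys replicate 1 moved the count most: without it 6 genes were called, with *Papss2* (-1.12), *Sult1b1* (-0.81), *Ugt2a3* (-0.77) and *Sult1d1* lower.

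**Figure D4:**
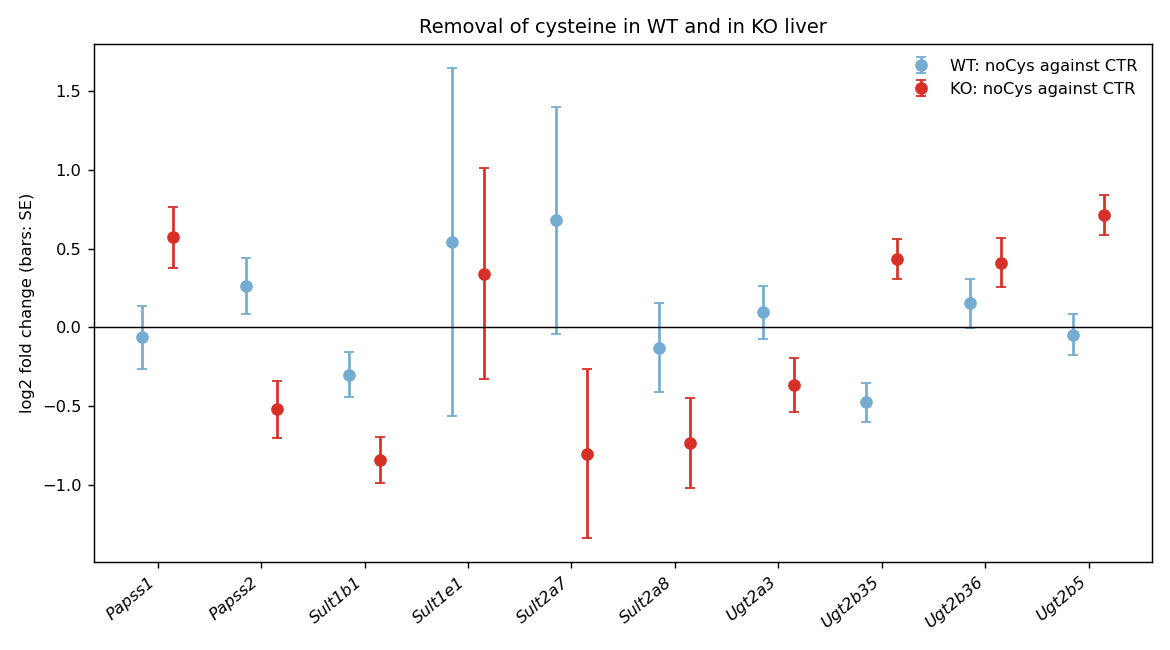
Log2 fold change on removal of cysteine in WT (blue) and in KO liver (red), with SE bars, for *Papss1*, *Papss2* and the 8 further genes with values by library. The 2 points part most clearly against their bars for *Ugt2b35* (-0.48 and 0.44) and *Ugt2b5* (-0.05 and 0.71), and those of *Sult1e1* (0.55 and 0.34) overlap.

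Within KO liver, removing cysteine called 5 of the 26 genes, 3 higher and 2 lower, against 20.2% of all tested genes (10.6% higher and 9.59% lower). *Ugt2b5* and *Ugt2b35* were higher as given above, and *Papss1* rose by 0.57 (SE 0.19, adjusted p = 0.0415). *Sult1b1* fell, from 40.5, 44.8, 39.3 and 40.3 CPM in KO CTR (log2 fold change -0.84, SE 0.15, adjusted p = 0.000496), and so did *Papss2*. Only *Sult1b1* and *Ugt2b5* were called in all 7 leave-out fits, *Ugt2b35* in 4, *Papss2* in 2 and *Papss1* in 1. The call of *Papss2* was also lost with library totals alone (adjusted p = 0.0635) or with only the groups compared (adjusted p = 0.107), and that of *Papss1* without the low-count filter (adjusted p = 0.0667) or with the replicate block (adjusted p = 0.0686). The lowest count was 2, without KO CTR replicate 3 or KO noCys replicate 3 or 4, and it was 3 without KO CTR replicate 1.

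Against KO liver without tryptophan, KO noCys liver differed in 3 genes (13.9% of all tested genes were called, 7.17% higher and 6.75% lower). *Ugt2b35* was higher by 0.55 (SE 0.12, adjusted p = 0.00487) and *Ugt2b5* by 0.45 (SE 0.12, adjusted p = 0.0187), while *Sult1b1* was lower by a log2 value of -0.60 (SE 0.14, adjusted p = 0.0082). KO noTrp had 139 to 182 CPM of *Ugt2b35*, 557 to 733 of *Ugt2b5* and 31.4 to 40.6 of *Sult1b1*, with medians of 176, 609 and 33.1. None of the 3 was called without KO noCys replicate 3. *Ugt2b5* was also lost without KO noCys replicate 1 or with the replicate block (adjusted p = 0.0654), and *Sult1b1* without KO noCys replicate 4. The count was 5 without KO noCys replicate 1, where *Papss2*, *Sult1d1* and *Ugt2a3* were further lower genes, and 5 without KO noTrp replicate 1 or 3.

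The other diets moved few of these genes. In KO liver, tryptophan removal called 0 of 26 genes by edgeR, with 6 at an unadjusted p under 0.05 and 2 called by DESeq2 (1.87% of all genes were called by edgeR). In WT liver, cysteine removal called 0, with 6 at an unadjusted p under 0.05 and 1 called by DESeq2 (0.661% of all genes). Tryptophan removal in WT called 2 genes lower (3.19% of all genes called, 1.5% lower), *Sult1b1* (-0.67, SE 0.17, adjusted p = 0.0390) and *Ugt2b35* (-0.62, SE 0.15, adjusted p = 0.0333). WT noTrp had 31.5 and 30.3 CPM of *Sult1b1* against 43.6 to 52.4 in WT CTR, and 104 and 111 of *Ugt2b35* against 143 to 182. These calls rested on 2 WT noTrp libraries: *Sult1b1* was called in 0 and *Ugt2b35* in 1 of the 5 leave-out fits. Both calls were also lost with library totals alone (adjusted p = 0.0552 and 0.120), with the replicate block and with only the groups compared. Between genotypes, *Sult2a7* was the 1 gene called on the control diet (0.32% of all genes, 0.0696% higher) and the 1 called without tryptophan (0.195%, 0.0696% higher).

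The summed level per kb gives each family's place. Sulfotransferases summed to 513 ± 51.3 CPM per kb (SD) in WT CTR, 614 ± 66.9 in KO CTR, 667 ± 27.3 in WT noCys, 576 ± 144 in KO noCys, 642 ± 35.4 in WT noTrp and 789 ± 108 in KO noTrp. Glucuronosyltransferases summed to 1109 ± 54.1, 1075 ± 136, 1091 ± 101, 1350 ± 97.9, 1045 ± 190 and 1224 ± 121 CPM per kb in the same order. The mean *Ugt* sum was highest in KO noCys, with 1284 to 1463 over its libraries. This range did not overlap that of WT noCys (957 to 1172) but overlapped that of KO noTrp (1039 to 1364). The *Sult* sums of KO noCys and WT noCys overlapped (484 to 743 and 627 to 688). The sums are descriptions without a test, and they follow the most abundant genes.

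The genes that feed both routes and carry their products were taken from lists written from general knowledge. Of 20 genes of sulfate supply and PAPS use, 0 were higher and 6 lower in KO noCys against WT noCys, with a median log2 fold change of -0.04. The counts of this list and of those that follow stand beside the 14.8% of all tested genes called higher and 13.4% called lower in this comparison. *Arsb*, a lysosomal sulfatase, was lowest (-1.27, SE 0.32, adjusted p = 0.0058). *Slc35b2*, which carries PAPS into the Golgi, was at -0.57 (SE 0.10, adjusted p = 0.000377), and *Cdo1*, the first enzyme of cysteine oxidation, at -0.50 (SE 0.14, adjusted p = 0.00912). *Sqor* and *Mpst*, enzymes of sulfide and mercaptopyruvate metabolism, were at -0.44 and -0.39. Within KO liver, removal of cysteine called 0 of the 20 higher and 4 lower, with a median of -0.11. Those 4 need not be the genes named above, and 9.59% of all tested genes were called lower.

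Of 10 genes of UDP-glucuronate supply and use, 3 were higher and 1 lower, with a median of 0.19. *Ugp2*, which makes UDP-glucose, had 307 to 392 CPM in WT noCys and 479 to 616 in KO noCys (0.68, SE 0.14, adjusted p = 0.00125). *Ugdh*, which oxidizes UDP-glucose to UDP-glucuronate, had 63.7 to 82.0 and 96.5 to 110.0 CPM (0.56, SE 0.15, adjusted p = 0.00724). *Slc35d1*, which brings UDP-glucuronate into the endoplasmic reticulum, had 114 ± 14.9 CPM (SD) in WT noCys against 176 ± 20.6 in KO noCys (0.63, SE 0.11, adjusted p = 0.000331). In each the lowest KO library was above the highest WT library. Within KO liver, removal of cysteine called *Slc35d1* higher (0.40, adjusted p = 0.0158) but not *Ugp2* (0.35, adjusted p = 0.0814) or *Ugdh*, which had 90.6 to 115 CPM in KO CTR (adjusted p = 0.998). *Slc35a3*, a carrier of UDP-N-acetylglucosamine, was lower (-0.35, SE 0.11). In the test of the difference between genotypes, where 7.44% of all tested genes were called, only *Slc35d1* of this list was called (0.65, SE 0.16, adjusted p = 0.0164), and of the sulfate list only *Cdo1* (-0.65, SE 0.19, adjusted p = 0.0426).

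Of 13 transporters of conjugates, 3 were higher and 4 lower, with a median of 0.02. *Abcc4* and *Abcc3*, which pump conjugates from the hepatocyte back to the blood, had 11.1 ± 2.93 and 462 ± 44.6 CPM (SD) in KO noCys against 1.56 ± 0.0568 and 167 ± 11.0 in WT noCys. Their log2 fold changes were 2.83 (SE 0.27, adjusted p = 6.22e-07) and 1.46 (SE 0.11, adjusted p = 3.83e-08). The lower genes with the largest changes were uptake carriers: *Slc22a7*, of organic anions, at -2.24 (SE 0.32, adjusted p = 5.19e-05), *Slco1a4* at -1.31 (SE 0.25, adjusted p = 0.000766) and *Slco1b2* at -0.41 (SE 0.13, adjusted p = 0.0202). *Abcc2*, the pump to bile, was at 0.19 and was not called. *Abcc3* (1.44), *Abcc4* (2.70), *Slco1a4* (-1.42) and *Slc22a7* (-1.81) were also called in the difference between genotypes, 4 of 13 beside the 7.44% of all tested genes.

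**Figure D5:**
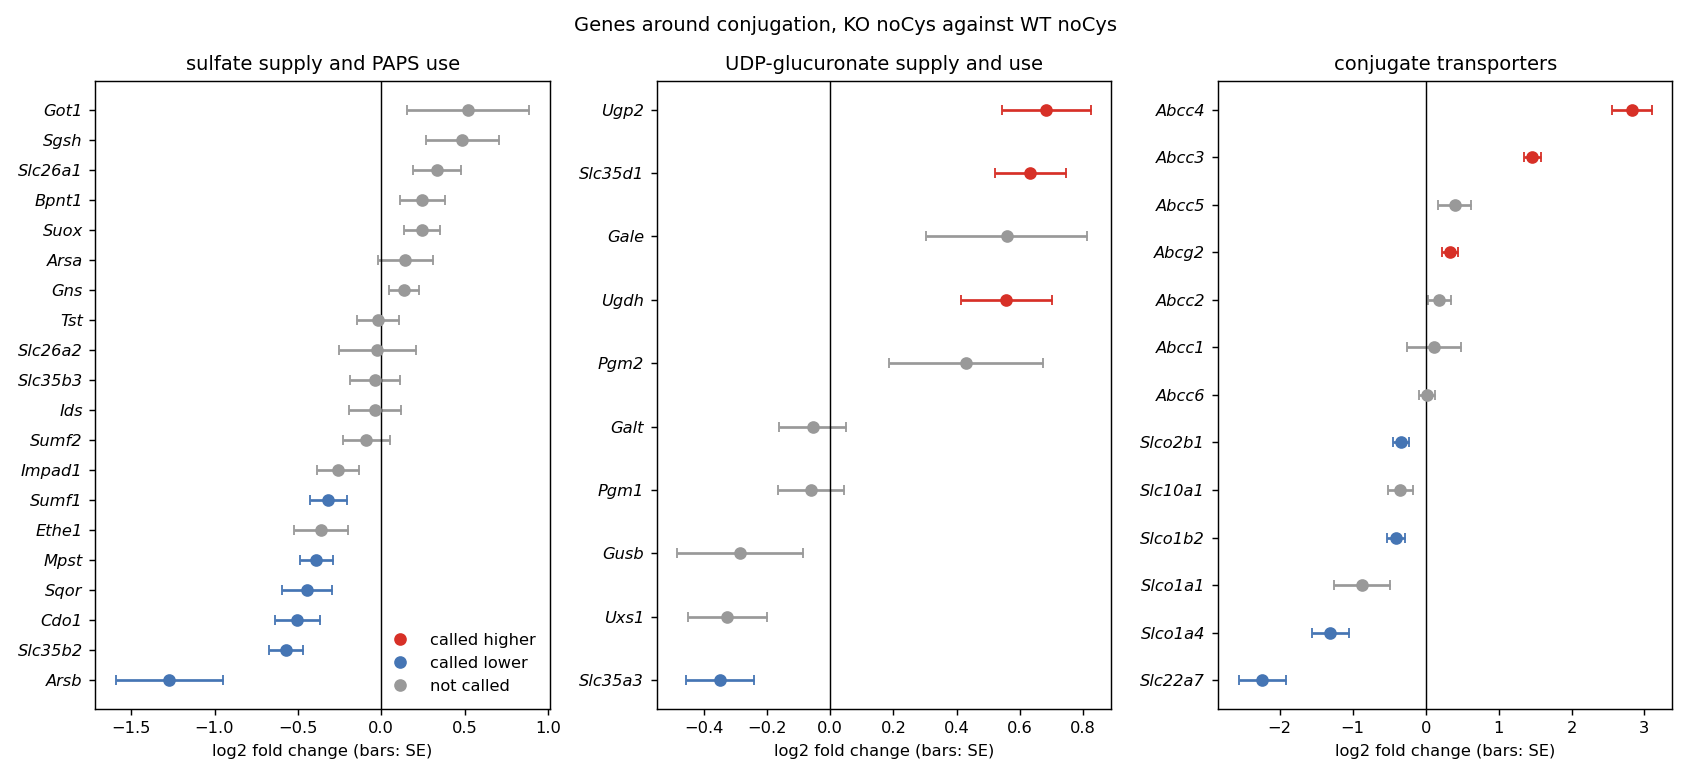
Log2 fold change in KO noCys against WT noCys, with SE bars, for the listed genes of sulfate supply and PAPS use (20), UDP-glucuronate supply and use (10) and conjugate transport (13); red genes were called higher, blue genes lower and grey genes not called. All 6 called genes of the first list are lower, 3 of the 4 of the second are higher, and the third runs from *Slc22a7* (-2.24) to *Abcc4* (2.83); the axes differ in range.

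Among 17 receptors and factors known to act on conjugation genes, 1 transcript was called lower, *Nr3c1*, the glucocorticoid receptor (-0.45, SE 0.11, adjusted p = 0.00566), and 0 higher. Of 12 of their target genes that are no conjugation genes, 11 were tested, 3 were higher and 3 lower. *Nqo1*, a target of NRF2, rose by 1.87 and *Srxn1*, also one, by 1.35. *Cyp2b10*, a target of CAR, was lower by a log2 value of -3.45 (SE 0.86, adjusted p = 0.00535), with 0.0643 to 0.789 CPM in KO noCys against 2.28 to 7.50 in WT noCys. *Cyp7a1*, the rate-limiting enzyme of bile acid synthesis, was at -1.42 (SE 0.45, adjusted p = 0.0229) and *Cyp3a11*, a target of PXR, at -1.24 (SE 0.22, adjusted p = 0.000295).

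Because *Sult1e1* and several *Sult2a* and *Sult3a* genes differ between the sexes in mouse liver, lists of male-biased and female-biased liver genes were set beside them. Of 14 male-biased genes, 13 were in the table and tested, and 0 were higher and 7 lower in KO noCys against WT noCys, with a median of -0.88. The largest were *Selenbp2* (-5.10), *Serpina4-ps1* (-4.73), *C6* (-1.82), *Hsd3b5* (-1.81) and *Elovl3* (-1.63). Of 14 female-biased genes, 8 were tested, and *Cyp2b9* (5.49, SE 1.44, adjusted p = 0.00758) and *Cyp2a4* (1.77, SE 0.35, adjusted p = 0.000807) were higher with 0 lower. *Sult3a1*, *Sult2a1* and *Sult2a2* stayed under 1 CPM in each of the 3 KO noCys libraries and each of the other 18.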

How the data were processed

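Liver RNA from 21 animals in 6 groups was measured by RNA sequencing. The authors prepared poly(A) libraries, sequenced both ends and deposited 1 table of gene counts, which are raw whole numbers without normalization. The submitters' processing notes name HISAT2 2.1.0, HTSeq 0.11.0 and GRCm38. Which annotation release was counted, and with what strand setting, is not given in the sources used here, so reads of a gene and an antisense neighbour, such as Gm20528 at the *Ugt1a* genes, cannot be told apart. 1 column belonged to no sample of the series and was left out. No pair of libraries had identical counts.

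Genes were kept with filterByExpr (minimum count 10, minimum total 15), which left 14370, and scaled by TMM (factors 0.883 to 1.14). edgeR 4.0.16 in R 4.3.3 fitted a one-way model of the 6 groups to all libraries, and 9 comparisons were tested by quasi-likelihood F-tests, which are two-sided. Adjusted p-values are Benjamini-Hochberg values over all tested genes, and called means under 0.05. SE is the log2 fold change divided by the square root of F. CPM are counts scaled to a common size of the TMM-adjusted totals. In the per-kb sums a gene needed at least 100 bases of exon that no other gene overlaps. With 2 to 5 libraries per group, p-values set each difference against the spread between libraries of these animals. That spread was estimated over all 6 groups and with help from the other genes. Limits for 0 counts cover counting error only. The script was tested on simulated counts with 200 changed genes.

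Named with values were both PAPS synthases, each conjugation gene called in at least 1 comparison, up to 5 called genes with the largest change from each further list, and *Cth*. *Sult1a1*, *Sult1d1*, *Ugt3a1*, *Abcc2* and other uncalled genes were named after their values were seen. The genes, lists and comparisons were chosen with earlier results of these data known. Sequences are from RefSeq. 1 listed gene and the search of the upstream windows for motifs are not reported here. No source used here says that a replicate number marks a shared batch, and in no comparison with 3 or more same-numbered pairs did every pair correlate over 0.1, so the numbers were not treated as pairs. Alternatives were DESeq2 1.42.0, RLE size factors, library totals alone, no filter on low counts, a fit limited to the groups at hand, a replicate block, and each library left out.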

Additional observations from a re-analysis of the deposited data

Results flagged for a closer look

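2 of the 26 tested genes (7.69%) were called in the test of whether cysteine removal acted differently in the 2 genotypes. This share was near the 7.44% of all tested genes. The log2 differences (KO minus WT) were 0.91 for *Ugt2b35* and 0.76 for *Ugt2b5*.

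Among 78 pairs of a tested gene and a group of 4 or 5 libraries, 6 had 1 library standing apart from the others by Dixon's criterion, and chance alone flags about 1 in 20 such groups. 4 of the 6 were KO noTrp replicate 2. It had 0.621 CPM of *Ugt1a6b*, where the nearest library of the group had 4.35. It had 4.7 CPM of *Ugt1a6a*, where the nearest had 10.3. Its *Sult1c2* stood at 1.86 CPM beside 2.71, and its *Ugt2b35* at 139 CPM beside 172. KO CTR replicate 2 had 76.6 CPM of *Sult2a7*, and the next library had 26.9. WT noCys replicate 1 had 4.08 CPM of *Ugt1a5*, and the next had 1.9. Without KO noTrp replicate 2, KO noTrp against WT noTrp called 2 genes, *Sult2a7* and *Ugt2b35*, in place of 1.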

How the results depend on the processing

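The 9 genes called in KO noCys against WT noCys numbered 9 with RLE size factors, 10 with library totals alone or DESeq2, 13 in a fit of only the groups compared, and 7 to 9 with 1 library left out. Library totals alone moved the median log2 fold change of all genes in this comparison from -0.02 to 0.20 and the share of higher genes among all calls from 52.5% to 80.0%, and among the conjugation genes to 7 higher and 3 lower, with *Papss1* and *Ugt2b34* added and *Sult2a8* lost. Without the low-count filter *Ugt2b36* was lost (adjusted p = 0.0529) and *Ugt3a1* added. *Ugt2b35* and *Ugt2b5* were called in the difference between genotypes under every alternative run, and that count was 2 to 6 with 1 library left out. No other alternative gave more than 3, the third being *Papss2* with DESeq2 or without the low-count filter.

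Counts that moved were small. KO CTR against WT CTR (1 gene) gave 2 without the low-count filter or with DESeq2, 0 with only the groups compared, and 0 to 1 with a library left out. KO noTrp against WT noTrp (1) gave 2 without the filter, 3 with DESeq2, 0 with only the groups compared, and 0 to 2 left out. KO noCys against KO CTR (5) gave 8 with DESeq2 and 2 to 6 left out; *Papss2* was lost with library totals alone or only the groups compared, and *Papss1* without the filter. KO noTrp against KO CTR (0) gave 1 with library totals alone, 2 with DESeq2, and 0 left out. WT noCys against WT CTR (0) gave 1 with DESeq2, 1 with only the groups compared, and 0 left out. WT noTrp against WT CTR (2) gave 0 with only the groups compared and 0 to 2 left out, and with library totals alone it gave 2 other genes (*Sult1a1* and *Sult1d1*, higher) in place of *Sult1b1* and *Ugt2b35*. KO noCys against KO noTrp (3) gave 6 without the filter, 7 with DESeq2, 5 with only the groups compared, and 0 to 5 left out. The cause was not tested.

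The replicate number as a block gave 0 called genes in KO CTR against WT CTR, 0 in KO noTrp against WT noTrp and 0 in WT noTrp against WT CTR, and 8 in KO noCys against WT noCys, where *Ugt2b36* was lost (adjusted p = 0.0816). The block also ended the calls of *Papss1* in KO noCys against KO CTR (adjusted p = 0.0686) and of *Ugt2b5* in KO noCys against KO noTrp (adjusted p = 0.0654). Same-numbered libraries correlated between -0.355 and 0.353 in their deviations from the group means, so the numbers were not taken to pair the animals.

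The difference between genotypes for *Sult1e1* (-0.20, SE 1.28) ranged from -1.16 to 0.83 with 1 library left out and turned sign in 5 of 14 such fits, to 0.02 (WT CTR replicate 3), 0.83 (KO CTR replicate 4), 0.09 (WT noCys replicate 3), 0.08 (KO noCys replicate 3) and 0.18 (KO noCys replicate 4). Over the single genes and alternatives, 413 values kept their direction and their side of the threshold, 60 lost a call, 7 gained one and 5 turned sign. Each group held 2 to 5 animals, and their spread sets the precision of these values.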

Other observations

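Markers of other cell types were read in KO noCys against WT noCys, where 13.4% of all tested genes were called lower and 14.8% higher. The 8 markers of cholangiocytes and gallbladder summed to 16.9 to 18.9 CPM in KO noCys and 34.8 to 59.0 in WT noCys, and 2 of the 6 tested were called lower, *Sox9* (-1.12) and *Spp1* (-1.64). Of 8 tested markers of Kupffer cells and leukocytes, 1 was lower, *Cd5l* (-0.76), and of 8 of endothelial and stellate cells, 1 was lower, *Pecam1* (-0.58). Of 5 tested erythroid markers, 3 were lower (*Hba-a2* -1.54, *Hbb-bt* -1.53 and *Alas2* -0.84). The 3 tested adipocyte markers split, with *Cidec*, a lipid droplet gene that liver also expresses, at 1.48, *Fabp4* at -0.81 and *Cfd* at -3.44. Among the hepatocyte markers, the called genes were *Alb* (-1.15), *Ttr* (-1.03), *Serpina1a* (-1.01), *Fgb* (-0.57) and *Hpd* (-0.55). None of the tested markers of small intestine (2) or exocrine pancreas (1) was called, and no kidney marker had enough counts to be tested.

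In KO liver, cysteine removal lowered 8 of 13 male-biased genes (9.59% of all tested genes were lower and 10.6% higher), among them *Hsd3b5* (-2.34, SE 0.59, adjusted p = 0.00846) and *Cyp4a12a* (-0.96, SE 0.31, adjusted p = 0.0369), which stood at 0.68 (SE 0.31, not called) in KO noCys against WT noCys, and raised *Cyp2a4* (1.06) and *Cux2* (3.75, SE 1.15, adjusted p = 0.0253) of the 8 tested female-biased genes. The median of those 8 was -0.09 in this comparison, 0.74 in KO noCys against WT noCys and 0.97 in KO CTR against WT CTR. The median log2 fold change of the male-biased list was -1.05 in KO noCys against KO CTR. In WT liver it was -0.62 on removal of cysteine, with 1 gene called lower (0.661% of all tested genes were called), and -0.88 on removal of tryptophan, with 3 called lower (1.5% of all were lower). In KO liver without tryptophan it was -0.42, with 1 called lower (1.87% of all were called).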
